A study of Mus musculus with 9 samples.

Results

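The STAT and SOCS genes described here are Stat3, Stat4, Stat5a, Stat5b, Stat6, Cish, Socs1, Socs2 and Socs3, which are 9 of the 22180 genes with a named row on the array. The members were named by gene symbol, by a rule that uses none of the values, though with earlier results of these data known, and each was represented by its array row of highest mean among rows that carry that symbol alone. RNA of γδ T cells sorted from C57BL/6 mice was read on 9 Affymetrix Mouse Gene 2.0 ST arrays, 3 for each subset. Intraepithelial lymphocytes (IELs) came from the lining of the small intestine, and Type-1 and Naive-like cells from peripheral lymph nodes. IELs were shaken loose from gut pieces in a warm buffer with a reducing agent and a chelator and collected on a density gradient, whereas lymph nodes were mashed and filtered, so tissue and preparation differ together with subset in every comparison that involves IELs. No genotype, treatment or time separates the groups, and nothing in the labels says whether a biological replicate is 1 mouse or a pool, how old the mice were or how the sort was gated. P-values therefore measure the spread between these samples. All values are log2 RMA values, in which 1 unit is a doubling of signal, and no detection calls accompany them.

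Cytokines such as interleukin 2, interleukin 7 and interleukin 15 bind receptor chains that carry Janus kinases (JAKs). The JAKs phosphorylate STAT proteins, which pair, enter the nucleus and switch on target genes. Among these targets are the genes of the SOCS proteins and of CIS, encoded by Cish, which bind the receptors or the JAKs and damp the same signal. In lymphocytes Cish is a classic target of STAT5, and its protein restrains signalling through interleukin 2 and interleukin 15 receptors.

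The labels were checked against marker genes. The T cell genes Cd3d, Cd3e and Cd3g lay between 10.06 and 12.32 on every array, and all 6 measured T cell markers stood above the median of all genes (4.52) in every subset. Of these 6, Thy1 passed as lower in IELs, at a mean of 6.15 against 8.26 in Type-1 and 8.72 in Naive-like cells. Cd3g and Zap70 passed as higher in IELs than in Type-1 cells, by 0.99 ± 0.23 and 1.05 ± 0.25 (limma, adjusted p = 0.0269 and 0.03). All 6 IEL markers passed as higher in IELs than in Type-1 cells and 5 of them as higher than in Naive-like cells, where Ccr9 differed by 0.11 ± 0.19. All 7 type-1 markers passed as higher in Type-1 than in Naive-like cells and also in IELs than in Naive-like cells, while 2 were higher and none lower in IELs than in Type-1 cells. The 4 measured naive markers passed as lower in IELs than in either lymph node subset. Between Type-1 and Naive-like cells none of those 4 naive markers passed limma's test (median difference -0.72). Genes of other cells moved with the IELs. Of 16 markers of intestinal epithelium, 10 passed as higher in IELs than in either lymph node subset and none in Type-1 versus Naive-like cells. No B cell marker of 5 and 1 myeloid marker of 8, Itgam, passed in IELs against either lymph node subset. Epithelial markers had a summed linear signal of 1242 to 2201 in IELs, 366 to 399 in Type-1 and 353 to 402 in Naive-like cells. The epithelial transcription factor gene Cdx2 lay at 3.51 to 4.16 on all arrays, under the median of all genes, where a difference could be missed. Cdx1 had subset means of 4.64 to 4.79, above that median. It differed by 0.08 ± 0.21 and -0.07 ± 0.21 in IELs versus Naive-like and Type-1 cells. Muc2, with subset means of 4.96 to 5.53, did not pass either. Of 18 immediate early and heat shock genes, 11 and 12 passed as higher in IELs than Naive-like and Type-1 cells, with summed signals of 16508 to 21990 in IELs, 4447 to 8849 in Type-1 and 4571 to 6682 in Naive-like cells.

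The promoter of Cish is shown first, since Cish is the member on which the results turn. It is set beside that of Socs3, a feedback gene for which no difference passed. The sequences are from RefSeq on GRCm38.p6 and run from 250 bases before to 50 after an annotated start, and capitals mark the motif TTCNNNGAA, the general form of a STAT binding site, which reads the same on both strands.
Cish, chr9:107296409-107296708, plus strand: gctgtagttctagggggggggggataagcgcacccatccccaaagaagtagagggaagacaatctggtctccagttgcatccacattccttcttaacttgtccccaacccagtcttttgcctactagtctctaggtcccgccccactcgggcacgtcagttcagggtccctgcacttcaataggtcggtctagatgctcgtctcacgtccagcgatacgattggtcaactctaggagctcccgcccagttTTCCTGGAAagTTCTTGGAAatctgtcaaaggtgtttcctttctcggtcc
Socs3, chr11:117969317-117969616, minus strand: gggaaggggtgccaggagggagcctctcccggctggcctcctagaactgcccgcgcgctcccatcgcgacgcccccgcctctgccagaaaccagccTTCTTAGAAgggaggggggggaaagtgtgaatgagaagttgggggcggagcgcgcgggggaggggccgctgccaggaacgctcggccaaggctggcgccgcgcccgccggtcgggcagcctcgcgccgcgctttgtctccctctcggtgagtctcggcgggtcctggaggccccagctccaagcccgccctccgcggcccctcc
The Cish window held 2 matches, at its bases 251 to 259 and 262 to 270, just past the annotated start and 2 bases apart. The Socs3 window held 1, at bases 97 to 105. At least 1 match occurs in 8.3% of 32851 promoter windows of this length and at least 2 in 0.457%, or 150 windows. Windows were found for 8 of the 9 members, all except Socs2, some with more than 1 annotated start, and those of Stat3, Stat4, Stat5a, Stat5b, Stat6 and Socs1 held no match. The form with a spacer of 4 bases, TTCNNNNGAA, which also reads the same on both strands, occurred in no member's window and in 6.95% of all windows.

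Cish was the only member that passed limma's test in any comparison of the main fit, which has no term for sets of arrays. Stat3 and Stat5b passed only in some alternative fits, given below. Cish was high in IELs alone. Its values were 7.97, 8.48 and 7.91 in the IEL arrays, 5.40, 6.22 and 5.36 in the Type-1 arrays and 5.65, 5.51 and 5.38 in the Naive-like arrays. All 3 IEL arrays lay above all 6 lymph node arrays, and the Type-1 and Naive-like arrays overlapped. IELs averaged 8.12 ± 0.32 (SD, n = 3) against 5.51 ± 0.14 in Naive-like cells, a difference of 2.61 ± 0.26 (SE), or 6.11-fold (limma, adjusted p = 5.57e-05). Against Type-1 cells, at 5.66 ± 0.49, the difference was 2.46 ± 0.26, or 5.51-fold (adjusted p = 0.000105). Type-1 and Naive-like cells differed by 0.15 ± 0.26 with a 95% interval of -0.42 to 0.71 (adjusted p = 0.962). In order of level, then, Cish was highest in IELs, and the lower neighbours Type-1 and Naive-like did not differ beyond their spread. By p-value it ranked 131 of 22180 genes in IELs versus Naive-like and 132 in IELs versus Type-1 cells.

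**Figure D1:**
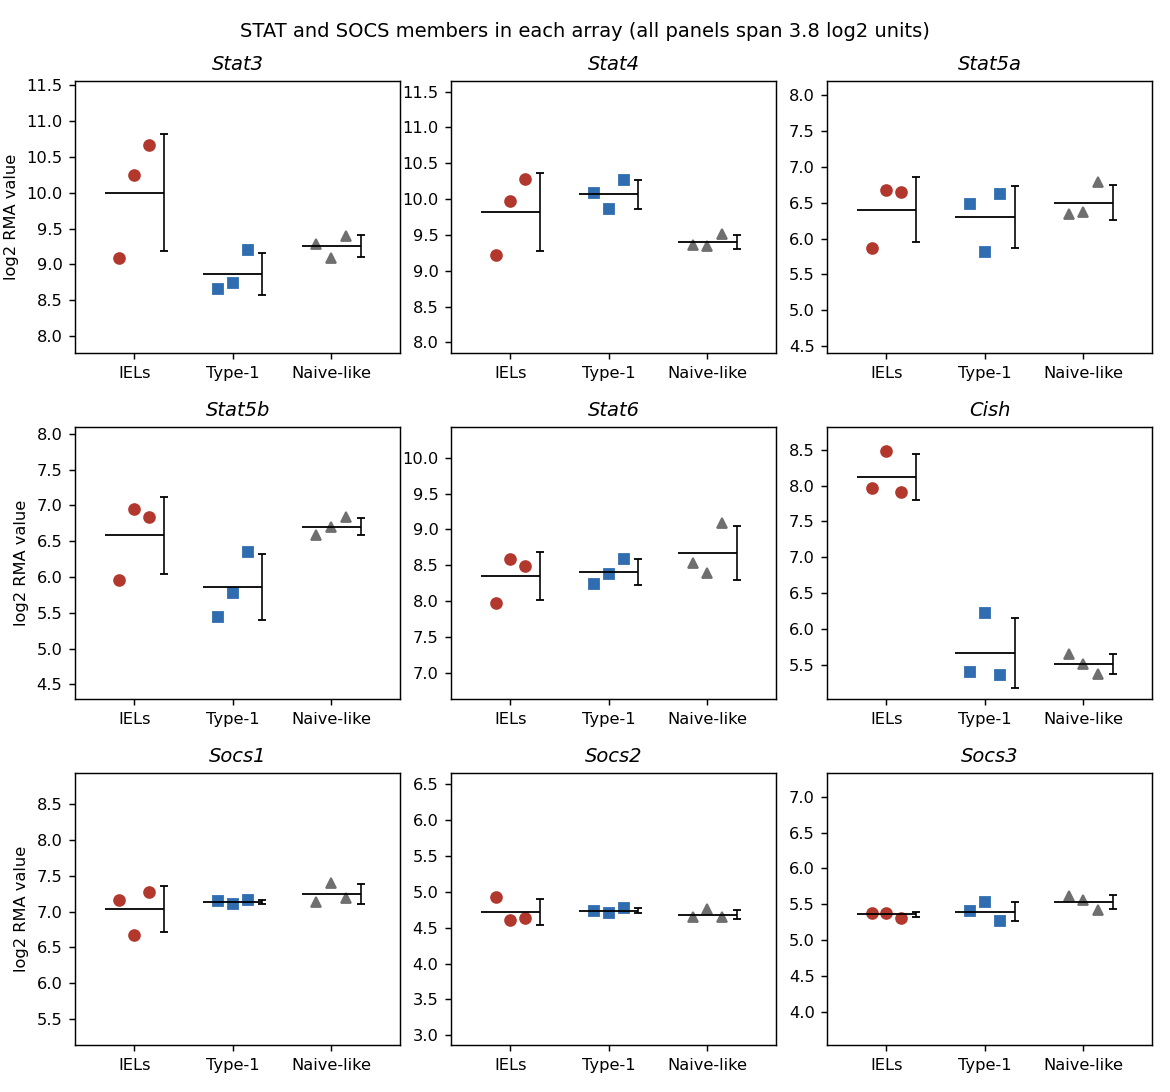
Log2 RMA value (y axis) of each STAT and SOCS member in each of 9 arrays, by subset (x axis), with points for replicates 1 to 3 from left to right, a horizontal line for the mean and a bar for ± SD. Cish lies between 7.91 and 8.48 in IELs and at or below 6.22 in all lymph node arrays, while for Stat3 IEL replicate 1, at 9.10, sits among the Naive-like arrays.

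The array carries another row named Cish, dimmer than the first, at 6.28, 5.92 and 5.87 in IELs, 5.19, 5.37 and 5.37 in Type-1 and 5.05, 5.37 and 4.98 in Naive-like cells. Its IEL arrays also lay above all others. With all rows tested, it was higher in IELs than Naive-like cells by 0.89 ± 0.20 (limma, adjusted p = 0.0208), and the difference from Type-1 cells was 0.71 ± 0.20 (adjusted p = 0.0674). The rows thus had the same direction and unequal size, and with the mean of both rows the Cish differences were 1.75 ± 0.20 and 1.59 ± 0.20. Across all 22 alternative fits Cish passed in both IEL comparisons, at adjusted p of 5.85e-06 to 0.00613 versus Naive-like and 5.28e-05 to 0.00985 against Type-1 cells. The difference was of like size in the date-coded arrays (replicate 3 of each subset, whose descriptions alone carry a date code) and the rest, at 2.53 and 2.65 versus Naive-like cells and 2.55 and 2.42 against Type-1 cells. Among IEL arrays, Cish and the summed epithelial signal were both highest in replicate 2 (8.48 and 2201) and lowest in replicate 3 (7.91 and 1242), with replicate 1 at 7.97 and 1593. The summed T cell signal ran in the same order, at 13283, 11612 and 11028 in IEL replicates 2, 1 and 3. The other Cish row did not, being highest in IEL replicate 1 (6.28). The part of epithelial and stress transcripts in the Cish difference was not tested. In such bulk samples, fewer cells of a type and less RNA per cell cannot be told apart.

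The genes whose centred values over the 9 arrays lay closest to those of Cish, among 10368 genes above the median level that were neither members, predicted genes nor T cell receptor segments, were Cela1, Atp8a2 and Adgrg1. Their root mean square differences from Cish were 0.25, 0.28 and 0.29, where Cish itself varied about its mean by 1.23. Cela1, an elastase gene, averaged 6.89 ± 0.22 in IELs, 4.43 ± 0.12 in Type-1 and 4.12 ± 0.16 in Naive-like cells (SD, n = 3 each). Atp8a2, which encodes a phospholipid flippase, averaged 7.21 ± 0.39, 4.69 ± 0.16 and 4.69 ± 0.13 in IELs, Type-1 and Naive-like cells. Adgrg1, an adhesion receptor gene, averaged 6.19 ± 0.19 in IELs, 3.91 ± 0.28 in Type-1 and 4.00 ± 0.29 in Naive-like cells. All 3 share with Cish a level that is high in IELs and low in both lymph node subsets. The arrays compared are the same 9 for every gene, so this likeness is a description of their pattern.

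In counts, 1 of 9 members passed as higher and none as lower in IELs than in Naive-like cells, where 5.19% of all genes passed, 3.57% as higher and 1.62% as lower. The same held for IELs versus Type-1 cells, where 5.14% passed, 3.73% as higher and 1.41% as lower, and Cish was that member each time. In Type-1 versus Naive-like cells 0 of 9 members passed limma's test, where 0.284% of all genes did, 0.212% as higher and 0.0721% as lower. At an unadjusted p under 0.05, members numbered 2 (Cish, Stat3), 2 (Stat4, Stat5b) and 3 (Cish, Stat3, Stat5b) in IELs versus Naive-like, Type-1 versus Naive-like and IELs versus Type-1 cells, where 14.2%, 6.48% and 16.3% of all genes did. Groups did not overlap for 2, 2 and 1 members, against 20.1%, 11.4% and 19.8% of all genes. Median member differences were -0.10, -0.13 and -0.02, beside -0.01, 0.03 and -0.03 over all genes. The comparisons share arrays pairwise, so their counts are not independent. In the F test over the 3 subsets Cish passed (limma, adjusted p = 6.24e-05), as did 5.41% of all genes, and no other member did.

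**Figure D2:**
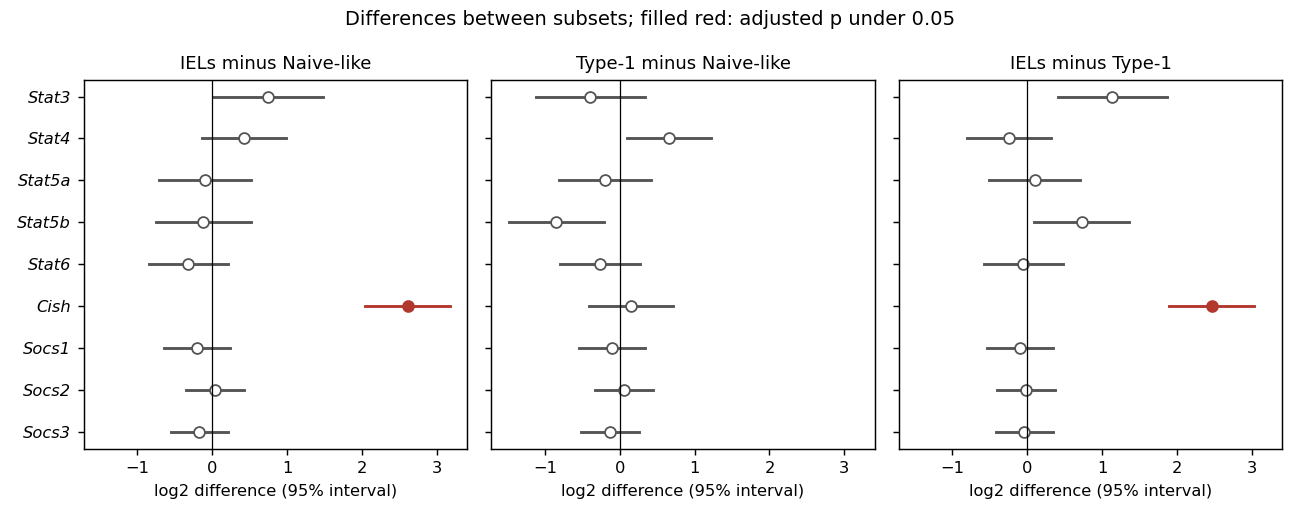
Log2 difference between subsets (x axis) for each member (rows), with its 95% interval from limma, in 3 panels for IELs minus Naive-like, Type-1 minus Naive-like and IELs minus Type-1. Filled red points passed at an adjusted p under 0.05, and only Cish did, at 2.61 and 2.46 in the panels with IELs.

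Stat3 encodes the transcription factor used by interleukin 6, interleukin 10 and interleukin 21 receptors. Its values were 9.10, 10.24 and 10.66 in IELs, 8.65, 8.74 and 9.20 in Type-1 and 9.28, 9.09 and 9.40 in Naive-like cells. IEL replicates 2 and 3 lay above every lymph node array, whereas IEL replicate 1 lay within the range of the Naive-like arrays and under 1 Type-1 array. The mean difference was 1.14 ± 0.34 against Type-1 cells (95% interval 0.40 to 1.87, limma adjusted p = 0.0847) and 0.74 ± 0.34 versus Naive-like cells (0.01 to 1.48, adjusted p = 0.338), so neither passed. Without IEL replicate 1 both passed, at 1.59 ± 0.24 (adjusted p = 0.00242) against Type-1 and 1.20 ± 0.24 (adjusted p = 0.0131) versus Naive-like cells. With array weights, which gave that array the lowest weight (0.441), both passed too, at 1.41 ± 0.28 and 1.00 ± 0.25 (adjusted p = 0.00824 and 0.0218). The difference from Type-1 cells also passed with the date code as a term (adjusted p = 0.0417) and with sets of arrays read from the running numbers of their descriptions as a block (adjusted p = 0.0261), and was 1.47 between the date-coded arrays and 0.97 among the rest. Over all 22 alternatives the adjusted p ran from 0.00242 to 0.316 against Type-1 and from 0.0131 to 0.747 versus Naive-like cells. Type-1 cells lay at -0.39 ± 0.34 from Naive-like cells (adjusted p = 0.91). From high to low the means ran from IELs through Naive-like to Type-1 cells, and no neighbours in that order passed limma's test over all genes.

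Stat4, which carries the signal of interleukin 12 and supports interferon-γ production, was higher in every Type-1 array than in any Naive-like array. It measured 10.08, 9.86 and 10.26 in Type-1 and 9.35, 9.34 and 9.51 in Naive-like cells, while IELs spanned both at 9.22, 9.98 and 10.28. The Type-1 minus Naive-like difference was 0.66 ± 0.26 (95% interval 0.10 to 1.22), which did not pass over all genes (limma, adjusted p = 0.655). IELs stood at 0.42 ± 0.26 from Naive-like (adjusted p = 0.561) and -0.24 ± 0.26 from Type-1 cells (adjusted p = 0.709). Without IEL replicate 1 these differences were 0.72 (adjusted p = 0.0887) and 0.0593, and without IEL replicate 3 they were 0.19 and -0.47. The IEL minus Naive-like difference was 0.76 between the date-coded arrays and 0.25 among the rest.

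Stat5a and Stat5b encode the closely related factors that act below the interleukin 2, interleukin 7 and interleukin 15 receptors, and on the chromosome Stat5b, Stat5a and Stat3 are consecutive coding genes. Stat5b was lower in every Type-1 array (5.44, 5.77 and 6.35) than in any Naive-like array (6.58, 6.70 and 6.83), with IELs at 5.96, 6.95 and 6.84. The Type-1 minus Naive-like difference was -0.85 ± 0.29 (95% interval -1.48 to -0.21, limma adjusted p = 0.562), and in none of the 22 alternatives did it pass. It was -0.48 between the date-coded arrays and -1.03 among the rest. The IEL minus Type-1 difference was 0.73 ± 0.29 (adjusted p = 0.224). It passed without IEL replicate 1 (1.04 ± 0.26, adjusted p = 0.0459) and with array weights (0.96 ± 0.25, adjusted p = 0.0379). Stat5a measured 5.88, 6.68 and 6.65 in IELs, 6.48, 5.81 and 6.62 in Type-1 and 6.34, 6.38 and 6.79 in Naive-like cells. Its groups overlapped throughout, and its differences lay between -0.20 and 0.10 with adjusted p of at least 0.909. The sign of its IEL minus Type-1 difference, 0.10, turned under another quantile normalization and cyclic loess. Whether probes of one gene of this pair also bind transcripts of the other was not tested.

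Stat6, the factor of interleukin 4 and interleukin 13 receptors, measured 7.97, 8.59 and 8.49 in IELs, 8.24, 8.38 and 8.59 in Type-1 and 8.53, 8.38 and 9.09 in Naive-like cells. The 3 groups overlapped, with intervals of -0.85 to 0.21 for IELs and -0.80 to 0.27 for Type-1 versus Naive-like cells, and -0.58 to 0.48 for IELs versus Type-1 cells. All 5 STAT genes were lowest, among IEL arrays, in replicate 1, and none of Cish and the 3 SOCS genes was. Over all 22180 genes replicate 1 was the lowest IEL array for 39.7%, and for 52.0% of the 11090 genes above the median level. The SD of the STAT genes was 0.33 to 0.81 in IELs and 0.09 to 0.46 in the lymph node subsets.

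The SOCS genes other than Cish varied little. Socs1, whose protein binds JAKs and curbs interferon-γ signalling, measured 7.16, 6.67 and 7.27 in IELs, 7.14, 7.11 and 7.17 in Type-1 and 7.14, 7.40 and 7.20 in Naive-like cells. The groups overlapped and the differences ran from -0.21 to -0.10, with a widest interval of -0.65 to 0.23. Socs3, which restrains receptors that use the gp130 chain, measured 5.38, 5.37 and 5.31 in IELs, 5.40, 5.53 and 5.26 in Type-1 and 5.61, 5.55 and 5.42 in Naive-like cells. The IEL arrays lay just under the Naive-like ones, at a difference of -0.17 ± 0.18 (limma, adjusted p = 0.797). Socs2, a regulator of growth hormone signalling, lay at 4.60 to 4.93 on all 9 arrays, close to the median of all genes, and no difference exceeded 0.06.

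Socs2 and Socs3 also have another row each, and these were less flat. The other Socs2 row measured 3.79, 3.25 and 4.26 in IELs, 4.83, 4.74 and 4.80 in Type-1 and 4.39, 4.10 and 3.26 in Naive-like cells, so that every Type-1 array lay above all others. It differed by -1.02 ± 0.31 between IELs and Type-1 (limma over all rows, adjusted p = 0.0952) and by 0.87 ± 0.31 between Type-1 and Naive-like cells (adjusted p = 0.601). The other Socs3 row measured 4.16, 4.20 and 4.49 in IELs, 4.48, 4.37 and 4.85 in Type-1 and 4.67, 5.08 and 4.79 in Naive-like cells, with a difference of -0.57 ± 0.21 between IELs and Naive-like cells (adjusted p = 0.195). None of these passed, and which row follows the coding transcript is not given in the files used here.

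**Figure D3:**
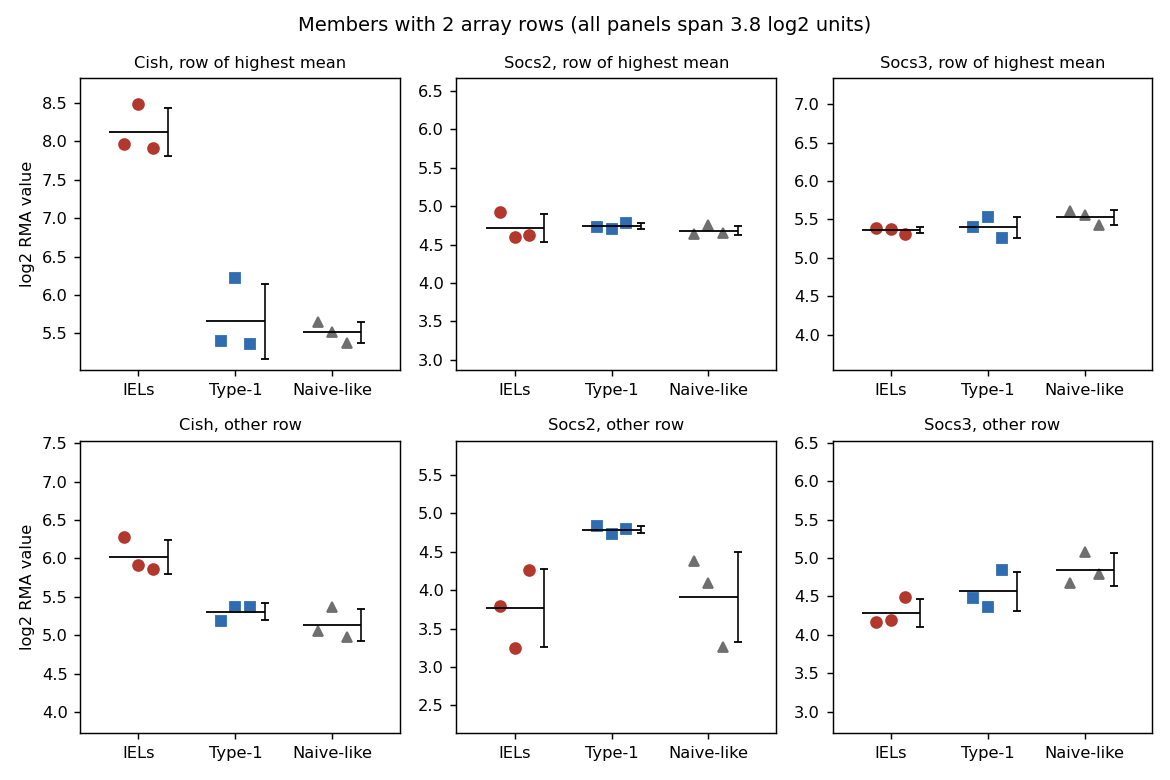
Log2 RMA value (y axis) by subset (x axis) for the 3 members with 2 array rows, with the row of highest mean above and the other row below, points for arrays, a line for the mean and a bar for ± SD. Both Cish rows are highest in IELs, whereas the other Socs2 row is highest in Type-1 cells, at 4.74 to 4.83, and the Socs2 row of highest mean is flat.

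Upstream of the members, several cytokine receptor chains differed between subsets. Of 22 measured chains 3 passed as higher and 4 as lower in IELs than in Naive-like cells, 1 as higher and 1 as lower in Type-1 than in Naive-like cells, and 2 as higher and 4 as lower in IELs than in Type-1 cells, with medians of -0.16, 0.19 and -0.27. Over all genes 5.19%, 0.284% and 5.14% passed in these comparisons. Il2rb, the chain shared by interleukin 2 and interleukin 15 receptors, was higher by 1.77 ± 0.33 in IELs and by 2.32 ± 0.33 in Type-1 cells, each versus Naive-like cells (limma, adjusted p = 0.0056 and 0.0073). Il2rb measured 9.34, 10.63 and 10.40 in IELs, 10.28, 10.66 and 11.07 in Type-1 and 8.50, 8.04 and 8.49 in Naive-like cells. All IEL and Type-1 arrays lay above the Naive-like arrays. In the 6 arrays without the date code both Il2rb calls were lost, at 1.71 ± 0.42 and 2.19 ± 0.42 (limma, adjusted p = 0.101 and 0.241). Il7r, the interleukin 7 receptor, was lower in IELs, at -2.02 ± 0.23 from Naive-like and -2.80 ± 0.23 from Type-1 cells. Il6ra, the interleukin 6 receptor, fell in all 3 comparisons, with differences of -3.95 ± 0.23, -1.59 ± 0.23 and -2.36 ± 0.23 in IELs versus Naive-like, Type-1 versus Naive-like and IELs versus Type-1 cells, though the call within lymph nodes was lost without Naive-like replicate 1 or 3 (adjusted p = 0.0571 and 0.0626) or in the 6 arrays without the date code (0.119). Il12rb2, a chain of the interleukin 12 receptor above STAT4, rose by 3.41 ± 0.35 and 2.68 ± 0.35 in IELs versus Naive-like and Type-1 cells.

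The interleukin 10 receptor chains Il10ra and Il10rb, which act through STAT3, were lower in IELs than in Type-1 cells, at -1.68 ± 0.22 and -1.31 ± 0.22 (limma, adjusted p = 0.00056 and 0.00399). Without the date-coded arrays the Il10rb call was lost (adjusted p = 0.0616). Il10ra measured 4.84, 4.92 and 5.40 in IELs, 6.62, 6.60 and 7.00 in Type-1 and 5.80, 5.45 and 5.88 in Naive-like cells. Il21r, the interleukin 21 receptor, was higher in IELs than in Type-1 cells by 1.09 ± 0.25, a call lost without IEL replicate 2 or 3 or Type-1 replicate 1 or 2 (adjusted p = 0.0579 to 0.116). Against Naive-like cells, Il27ra, the interleukin 27 receptor, was lower in IELs, at -1.32 ± 0.28, a call lost without Naive-like replicate 3 (adjusted p = 0.0779). Ifngr2 was lower, at -1.45 ± 0.35, and Ifngr1, the other chain of the interferon-γ receptor, rose by 0.95 ± 0.25. These calls were lost without any 1 of 4 arrays (IEL replicates 1 and 2, Naive-like replicates 2 and 3, adjusted p = 0.09 to 0.133) for Ifngr2, and without any 1 of the 8 arrays other than IEL replicate 1 (adjusted p = 0.053 to 0.194) for Ifngr1. Type-1 cells also stood at -1.87 ± 0.35 (Ifngr2) and 0.67 ± 0.25 (Ifngr1) from Naive-like cells, without passing (limma, adjusted p = 0.0553 and 0.612). IELs differed from Type-1 cells by 0.43 ± 0.35 for Ifngr2 and 0.27 ± 0.25 for Ifngr1, again without passing.

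Among JAKs, remaining STAT and SOCS genes and other negative regulators, 18 of 20 listed genes were measured. In IELs 0 were higher and 1 lower than in Naive-like cells, where 5.19% of all genes passed, and 1 was higher and 1 lower than in Type-1 cells, where 5.14% did. None of the 18 passed in Type-1 versus Naive-like cells, where 0.284% of all genes did. The median differences were 0.0530, 0.20 and -0.0555 in the same order. Jak1, the kinase shared by most of these receptors, was the lower one each time, at 9.31, 9.82 and 9.91 in IELs, 10.40, 10.46 and 10.81 in Type-1 and 10.45, 10.50 and 10.68 in Naive-like cells. The IEL arrays lay under all lymph node arrays, with differences of -0.86 ± 0.22 from Naive-like and -0.88 ± 0.22 from Type-1 cells (limma, adjusted p = 0.0368 and 0.0347). Leaving out any of the 6 arrays compared raised the adjusted p past 0.05 in both comparisons, and leaving out Naive-like replicate 1 or 2 did so against Type-1 cells (0.0509 to 0.13 versus Naive-like and 0.0523 to 0.0915 against Type-1 cells). Ptpn11, which encodes the phosphatase SHP2, was higher in IELs than in Type-1 cells by 1.18 ± 0.31 (adjusted p = 0.0486), a call lost without IEL replicate 2 or 3, Naive-like replicate 1 or 3, or Type-1 replicate 1 or 2 (adjusted p = 0.0675 to 0.187). Over the 22 alternatives the Ptpn11 call held in 6. Those of Jak1 held in 14 versus Naive-like and 11 against Type-1 cells.

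**Figure D4:**
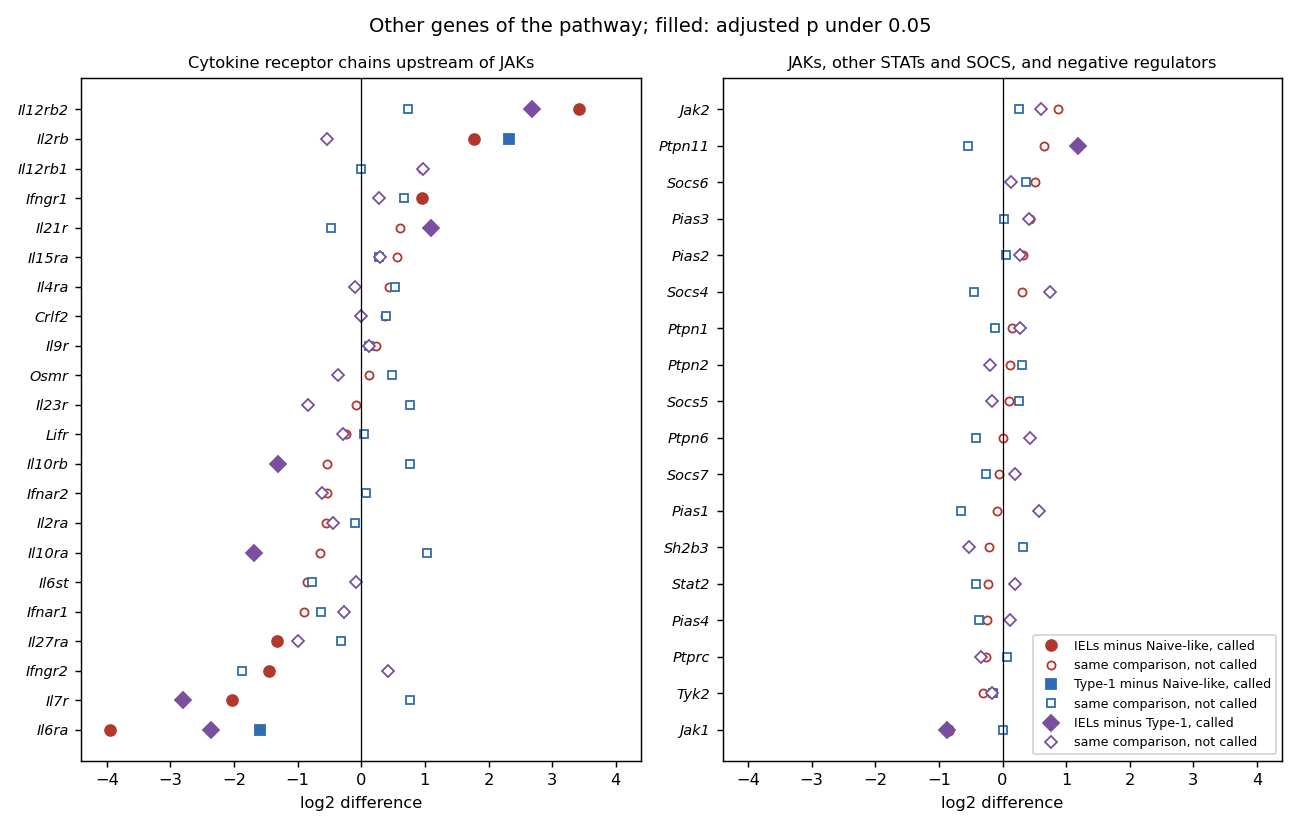
Log2 difference (x axis) of receptor chains (left) and of JAKs, other STAT and SOCS genes and regulators (right), with circles for IELs minus Naive-like, squares for Type-1 minus Naive-like and diamonds for IELs minus Type-1, filled where the adjusted p was under 0.05. Receptor chains spread from -3.95 to 3.41, and the genes on the right stay within 1.18 of 0.

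Genes known as targets of STAT5 other than Cish had medians near 0, with a few calls. Of 12, 2 passed as higher and 0 as lower in IELs than in Naive-like cells, 1 and 0 in IELs than in Type-1 cells, and 0 in Type-1 versus Naive-like cells, with medians of -0.01, 0.02 and -0.02 in IELs versus Naive-like, IELs versus Type-1 and Type-1 versus Naive-like cells. The shares over all genes were 5.19%, 5.14% and 0.284%. The list does not separate targets that STAT5 raises from those that it lowers. The genes that passed were Pim1, a survival kinase gene, and Bcl2, which blocks cell death, higher in IELs than Naive-like cells by 0.87 ± 0.22 and 0.81 ± 0.20, and Bcl6, a transcriptional repressor gene, higher in IELs than in Type-1 cells by 0.88 ± 0.23. All 3 calls lay close to the threshold (limma, adjusted p = 0.0406, 0.0312 and 0.0483). They were lost for Pim1 without any 1 of IEL replicates 1 and 3, the 3 Naive-like arrays and Type-1 replicates 2 and 3 (adjusted p = 0.0521 to 0.153). Bcl2 stood as high in Type-1 cells, at 10.33 ± 0.27 in IELs, 10.39 ± 0.15 in Type-1 and 9.52 ± 0.03 in Naive-like cells, and its Type-1 minus Naive-like difference of 0.86 ± 0.20 did not pass (adjusted p = 0.156). The Bcl2 call was lost without IEL replicate 2 or 3 or any Naive-like array (0.0894 to 0.144). That of Bcl6 was lost without any IEL or Type-1 array or without Naive-like replicate 1 (0.0662 to 0.188). With the mean of a gene's rows, the Pim1 and Bcl2 differences between IELs and Naive-like cells were 0.51 ± 0.21 and 0.60 ± 0.20. Neither then passed (limma, adjusted p = 0.286 and 0.142). Over the 22 alternatives the calls of Pim1, Bcl2 and Bcl6 held in 6, 13 and 10. Il2ra, the high-affinity chain of the interleukin 2 receptor and a STAT5 target, stood at -0.55 ± 0.21 and -0.45 ± 0.21 in IELs versus Naive-like and Type-1 cells without passing.

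Several known targets of STAT4 passed. Of 10, 5 were higher and 1 lower in IELs versus Naive-like cells, 3 were higher and 0 lower in Type-1 versus Naive-like cells, and 3 were higher and 2 lower in IELs than in Type-1 cells, with medians of 0.99, 0.77 and 0.26. Over all genes 5.19%, 0.284% and 5.14% passed. Ifng, the interferon-γ gene, rose by 3.60 ± 0.28 in IELs and 2.38 ± 0.28 in Type-1 cells versus Naive-like cells, and by 1.22 ± 0.28 in IELs versus Type-1 cells, where the call was lost without IEL replicate 1 or 2 or Type-1 replicate 2 or 3 (adjusted p = 0.0538 to 0.0927). Tbx21, which encodes T-bet, rose by 2.57 ± 0.29 and 1.95 ± 0.29 in IELs and Type-1 cells versus Naive-like cells, and the Type-1 call was lost without Naive-like replicate 2 or 3 (adjusted p = 0.0685 and 0.0665). Furin, which encodes a proprotein protease, rose in IELs by 1.73 ± 0.30 versus Naive-like and 2.08 ± 0.30 against Type-1 cells. Gadd45g, a stress-response gene, rose in IELs by 1.16 ± 0.24 versus Naive-like cells, a call lost without IEL replicate 3 or Naive-like replicate 2 or 3 (adjusted p = 0.0572 to 0.0624). Without the date-coded arrays the calls of Furin and Gadd45g in IELs versus Naive-like cells (adjusted p = 0.0636 and 0.159) and of Ifng and Tbx21 in Type-1 versus Naive-like cells (0.149 and 0.275) were lost. The interleukin 18 receptor genes Il18r1 and Il18rap had the same sign in every comparison. Il18r1 was lower in IELs, at -3.15 ± 0.31 from Naive-like and -4.83 ± 0.31 from Type-1 cells, and its Type-1 minus Naive-like difference was 1.67 ± 0.31 (adjusted p = 0.0553). Il18rap rose by 2.60 ± 0.33 in Type-1 versus Naive-like cells and stood at -3.01 ± 0.33 in IELs versus Type-1 cells, which also passed, and at -0.41 ± 0.33 in IELs versus Naive-like cells (adjusted p = 0.71). Il12rb2, also a receptor chain above, completes the genes of this list that passed.

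None of 10 known targets of STAT3 passed limma's test in any comparison, where 5.19%, 0.284% and 5.14% of all genes did in IELs versus Naive-like, Type-1 versus Naive-like and IELs versus Type-1 cells. Their medians were 0.10, 0.0822 and 0.13. Of these targets, Il10, Il17a, Il21 and Il23r were dim, with subset means of 2.89 to 4.15 against a median of 4.52 over all genes. RMA compresses differences of dim genes, so the lack of a call for them says little. Junb, also an immediate early gene, had the highest mean and differed by 1.52 ± 0.48 in IELs versus Naive-like and 1.25 ± 0.48 against Type-1 cells (adjusted p = 0.114 and 0.204), and Batf, an AP-1 family gene, by 0.44 ± 0.18 and 0.26 ± 0.18. Maf went the other way, at -0.76 ± 0.21 in both comparisons (limma, adjusted p = 0.0635 and 0.0622). By sign alone 5 of the 10 were higher and 5 lower in IELs than in Naive-like cells, and 7 and 3 against Type-1 cells. Of 6 known targets of STAT6, set beside the same shares, 1 passed as higher in IELs than Naive-like cells, 0 in Type-1 versus Naive-like cells, and 1 as higher and 1 as lower in IELs than in Type-1 cells. Their medians were -0.14, 0.28 and -0.15. Nfil3, a transcription factor gene, rose by 2.76 ± 0.30 and 2.23 ± 0.30. Il4, the interleukin 4 gene, fell by 1.03 ± 0.24 in IELs versus Type-1 cells, on a row dim in all subsets (3.16 to 4.74), and the call was lost without any IEL array or without Type-1 replicate 2 or 3 (adjusted p = 0.0551 to 0.106).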

How the data were processed

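Per the submitters' processing notes the authors used oligo and RMA; for versions and filters the sources used here give nothing. The deposited values are log2 RMA values for 41345 array rows on 9 arrays, from 0.785 to 13.5, with array medians of 4.25 to 4.43. RMA compresses differences of dim genes, and the number of arrays limits the precision.

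The platform annotation named the rows, of which 23521 had 1 symbol, 1814 several and 16010 none, and 23328 of those with 1 symbol were found in RefSeq by Entrez identifier. The 22180 genes, represented by the row of highest mean, were fitted together with limma 3.58.1 in R 4.3.3 (1 mean per subset, 3 comparisons, eBayes), two-sided, with Benjamini-Hochberg adjustment over all genes and a threshold of 0.05. Members and lists were chosen with earlier results of these data known. Named beside the members are list genes that passed, at most 6 per list, comparison and direction, or else the 2 of highest mean. Il2ra and Maf were named by choice after their values were seen. Also named are the 3 genes closest to a member that passed the F test. All 9 members also passed a filter at the 40th percentile of level. On simulated data with 22180 genes, 200 changed, log2 changes of 1, 2 and 3 were recovered in 38.8%, 88.1% and 98.5% of cases for IELs against Naive-like cells (3 false calls), 29.9%, 89.6% and 98.5% for Type-1 versus Naive-like cells (5) and 32.8%, 95.5% and 100% for IELs versus Type-1 cells (7). In the data 1152, 63 and 1140 genes passed in IELs versus Naive-like, Type-1 versus Naive-like and IELs versus Type-1 cells. The share recovered depends on how many genes change, so these rates need not hold in the data. Listed genes without a row of 1 symbol were not analysed here. Python 3.11.15, pandas 2.3.3, numpy 2.4.6 and matplotlib 3.10.9 were used.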

Additional observations from a re-analysis of the deposited data

How the results depend on the processing

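Each result was refitted under 22 alternatives for single genes (23 for counts), 9 of which leave out 1 array. Over 27 member differences this gave 594 values, of which 558 kept direction and call, 9 gained a call (Stat3 and Stat5b, given above), 27 changed sign and none lost a call. No difference that changed sign was above 0.24 in size or had passed. With array weights the differences were 0.15, 0.14 and -0.0268 for Stat5a, Stat5b and Socs2 in IELs versus Naive-like and 0.0881 for Stat6 in IELs versus Type-1 cells. The mean of a gene's rows gave -0.0557 for Socs2 in IELs versus Naive-like cells. Quantile normalization again gave -0.0581 and cyclic loess -0.0241 for Stat5a, and cyclic loess 0.0024 for Socs2, in IELs versus Type-1 cells. Cyclic loess gave 0.0112 for Socs1 in Type-1 versus Naive-like cells, and the arrays without the date code 0.0455 for Socs2 in IELs versus Type-1 cells. Leaving out single arrays, ranges that crossed 0 were -0.24 to 0.17 (Stat5a), -0.30 to 0.19 (Stat5b) and -0.0671 to 0.10 (Socs2) in IELs versus Naive-like, -0.35 to 0.0501 (Stat5a) and -0.13 to 0.30 (Cish) in Type-1 versus Naive-like, and -0.47 to 0.0593 (Stat4), -0.15 to 0.36 (Stat5a), -0.17 to 0.14 (Stat6), -0.22 to 0.0792 (Socs1), -0.12 to 0.0399 (Socs2) and -0.11 to 0.0259 (Socs3) in IELs versus Type-1 cells.

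Members that passed numbered 2 with array weights and 1 to 2 without single arrays in IELs versus Naive-like cells, and also in the F test. In IELs versus Type-1 cells they numbered 3 with array weights and 1 to 3 without single arrays. They numbered 2 there (Cish and Stat3) with a date code term, with the description set (running numbers 1 to 4, 5 to 8 and 9 to 12) as a block, and with the replicate block, where Stat3 had an adjusted p of 0.0371. The block moved no other member count. Same-numbered replicates did not all deviate together (correlations of their deviations from -0.015 to 0.382), so the numbers are not taken to pair the samples. The 9 pairs of arrays that share a description set correlated at 0.073 to 0.382, and the 14 pairs that share neither at -0.29 to 0.041. Every alternative left 0 members in Type-1 versus Naive-like cells. Over all genes, counts were 1152, 63, 1140 and 1200 in IELs versus Naive-like, Type-1 versus Naive-like, IELs versus Type-1 and the F test. They became 534, 20, 565 and 527 without the date-coded arrays and, with array weights, 1920 for IELs versus Naive-like cells and 1884 for the F test. Without single arrays they ran from 34 to 87, 724 to 1308 and 771 to 1392 for the last 3. The cause of these changes was not tested. Of 36 pathway gene calls with 791 alternative values, 128 values missed the threshold and none changed sign. In the 6 arrays without the date code 20 of the 36 calls were lost. The remaining settings, apart from those that leave out a single array, ended 11, each also lost without some single array. They include the fit of only the 2 subsets compared, which ended the Il21r call in IELs versus Type-1 cells (limma, adjusted p = 0.0613). In the simulated data, with 200 genes changed, log2 changes of 1 were often missed at this number of arrays.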
